A study of Mus musculus with 6 samples.

Results

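Genes that bring fatty acids into the heart muscle cell and burn them in its mitochondria were followed in the left ventricle of mice with and without the kinase Akt2. The 31 genes were taken by name, and each was read through the probe sets that the platform annotation assigns to it alone, with the brightest probe set by mean log2 signal standing for the gene. This gave values for 29 of the 31 genes, from 59 of the 45101 probe sets, and all 29 passed the filter on low signals, among 11075 tested genes. Acsl1, an acyl-CoA synthetase, was not analysed here. Cpt1b, the muscle form of carnitine palmitoyltransferase 1, was not analysed either, because the probe set annotated to it also names Chkb and Gm44502.

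The study compared 3 arrays from akt2-/- mice, which carry a targeted disruption of the gene, with 3 from wild type mice. All were males of the C57BL/6 strain aged 12 to 16 weeks, and the mutant line had been crossed back to wild type animals more than 7 times. The labels name no tissue-specific promoter or Cre, do not say whether the wild type mice were littermates, and do not say whether each array holds 1 animal, so p-values measure the spread between these samples only. Total RNA, 12 ug a sample, was labelled with biotin and hybridised to 1 array each. All values are linear MAS5 signals, with the same trimmed mean on every array, and differences are knockout minus wild type on the scale log2(signal + 21.7), which understates changes of dim genes. Probe sets differ in how strongly they bind, so signals are not read as RNA levels that can be compared between genes.

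Long-chain fatty acids are the main fuel of the adult heart. Lipoprotein lipase frees them from circulating triglyceride at the vessel wall, CD36 and transport proteins carry them into the cell, and acyl-CoA synthetases and the carnitine shuttle take them into the mitochondrion. There each turn of beta-oxidation removes an acetyl unit through a dehydrogenase, a hydratase, a second dehydrogenase and a thiolase. The nuclear receptor PPAR-alpha and its coactivator PGC-1alpha set the level of many of these genes, and insulin signalling, in which Akt2 takes part, shifts muscle toward glucose.

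Akt2 itself had signals of 2363, 2561 and 2505 in the wild type arrays 1, 2 and 3 and of 477.8, 394.5 and 255.4 in the knockout arrays, and every knockout array lay below every wild type array (log2 -2.69, SE 0.24; limma adjusted p = 0.0638 over all genes). Both arrays numbered 1 differed from the other 4 in their controls. Their 18S ribosomal RNA controls had median signals of 82330 and 57275 against 152.7 to 446.7 in the other 4 arrays, and their poly-A spike-ins had 56.15 and 59.6 against 532.3 to 945.5. Their Gapdh 3' to 5' ratios were 0.9 and 0.807 against 0.728 to 0.74. The replicate 1 arrays had also stood apart in an earlier analysis of these arrays. Each value below is therefore also given for the replicate 1 pair, which has 1 array a genotype and no replicate check. It is given as well for replicates 2 and 3, with 2 arrays a genotype. The 10 cardiomyocyte markers, among them Myh6, Tnnt2 and Ttn, all passed the filter on low signals.

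Over all 6 arrays no fatty acid gene was called different between the genotypes. The disrupted gene Akt2 was not called either (log2 -2.69, limma adjusted p = 0.0638), so an absent call does not show an unchanged gene. The limma test without a block called 0 of the 29 genes at an adjusted p under 0.05, as it called 0 of 11075 genes (0%), and the lowest adjusted p among the 29 was 1. Unadjusted p was under 0.05 for 0 of the 29 and for 240 of all tested genes (2.17%). The difference was above 0 for 22 of the 29 genes and for 53.3% of all tested genes, with medians of 0.046 and 0.015. The median of the 29 was 0.087 after quantile normalization and 0.14 after median centring, where that of all tested genes was 0.020 and 0.11. It also rested on single arrays: it was -0.035 without wild type replicate 2, 0.22 without wild type replicate 1 and between 0.0035 and 0.085 without 1 of the other 4. With the deposited scaling, most of the genes lay on opposite sides in the 2 sets of arrays. In replicates 2 and 3 the knockout mean was above the wild type mean for 27 of the 29 genes, with a median of 0.19, against 50.7% of all tested genes and a median of 0.0030. In the replicate 1 pair it was above for 8 of the 29, with a median of -0.14, against 51.3% of all tested genes and a median of 0.012. Lower in the replicate 1 pair and higher in replicates 2 and 3 were 20 of the 29 genes, against 24.7% of all tested genes, while 7 of the 29 were higher in both, against 26%. The count of 20 was 11 after quantile normalization and 7 after centring each array on its median. A difference of at least 1.5-fold was reached in the replicate 1 pair by 4 of the 29 (Angptl4, Acot1, Ucp3 and Lpl), against 20.8% of all tested genes.

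**Figure D1:**
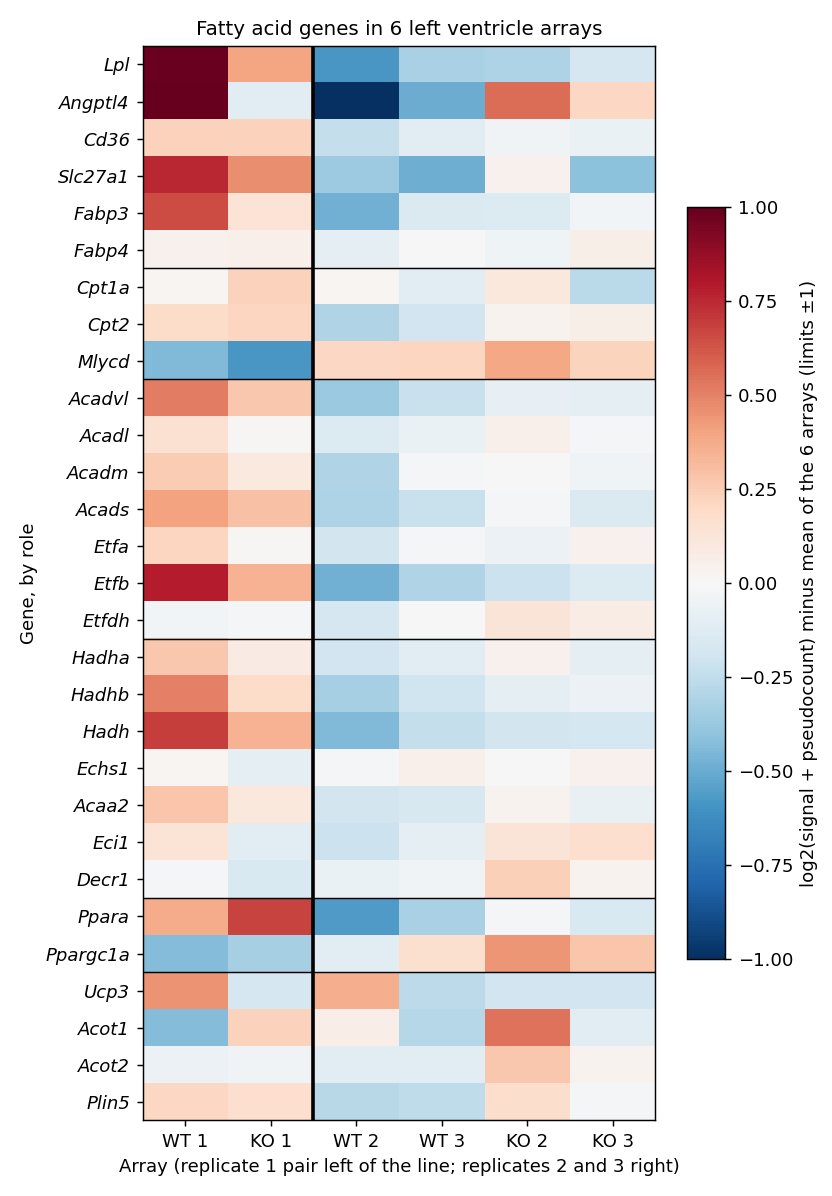
Log2 signal of each of the 29 genes in each array, as the deviation from the gene's mean over the 6 arrays (colour, with deviations beyond ±1 drawn at the limit), with genes grouped by role from uptake at the top to storage at the bottom. Wild type replicate 1 is the highest array for most genes, and in replicates 2 and 3 the knockout arrays are above the wild type arrays for most genes.

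In replicates 2 and 3 most of the genes lay on 1 side without overlap. Both knockout arrays were above both wild type arrays for 21 of the 29 genes, against 22.3% of all tested genes, and both were below for 0 of the 29, against 20.9%. The differences were small: at least 1.5-fold for 1 of the 29 genes, Angptl4, against 3.32% of all tested genes. With these 4 arrays alone, limma gave an unadjusted p under 0.05 for 5 of the 29 genes (Angptl4, Cpt2, Eci1, Ppara and Plin5), against 9.84% of all tested genes. The 5 were higher in the knockout. Of all tested genes, 5.12% both had such a p and were higher in the knockout. None of the 29 passed adjustment over all genes, where the lowest limma adjusted p was 0.396 and 0 of 11075 genes were called (0%). The 29 values come from the same 4 arrays and are not independent of each other. Without 1 of these arrays in turn, 26 to 28 genes were above 0. The median of the 29 was 0.12 without wild type replicate 2, 0.14 without knockout replicate 2, 0.19 without knockout replicate 3 and 0.26 without wild type replicate 3. Heart tissue holds several cell types, and fewer cells of a type and less RNA per cell cannot be told apart in it.

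**Figure D2:**
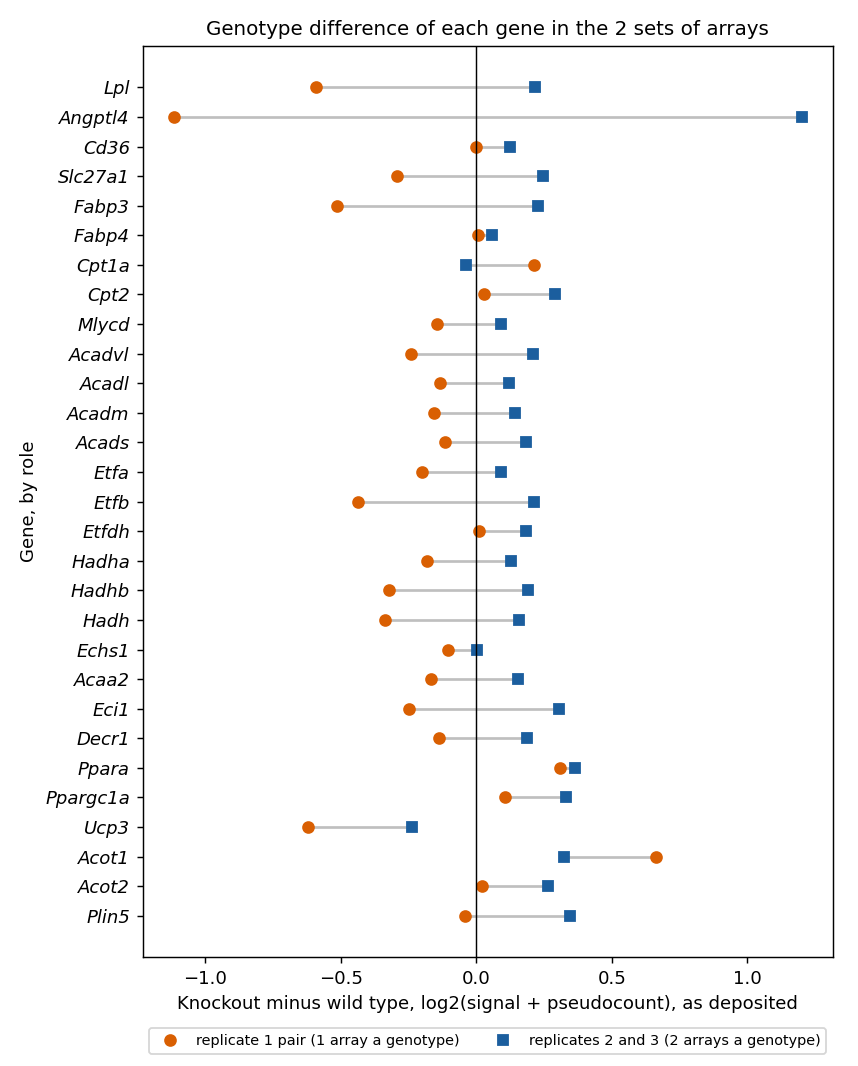
Knockout minus wild type difference on the log2 scale for each of the 29 genes, with the deposited scaling, with circles for the replicate 1 pair and squares for replicates 2 and 3. The squares lie above 0 for 27 genes and the circles for 8, and 7 genes, among them Ppara, Ppargc1a, Acot1 and Acot2, lie above 0 in both sets.

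Of the 6 uptake genes, 5 were lower in the knockout for replicate 1 and 6 were higher for replicates 2 and 3. After quantile normalization of the arrays Lpl, Cd36 and Fabp3 turned sign for replicate 1 and Fabp4 for replicates 2 and 3 (to -0.059). Lpl, the lipase that releases fatty acids from triglyceride, had 138687, 46665 and 55856 in wild type arrays 1, 2 and 3 and 92006, 56356 and 62315 in the knockout arrays. Its wild type replicate 1 array was far above all others, and its knockout arrays lay between the wild type values (log2 -0.054, SE 0.43; -0.59 for replicate 1 and 0.21 for replicates 2 and 3). The other Lpl probe set gave -0.43 for replicate 1 and 0.0027 for replicates 2 and 3, where its genotypes overlapped. Angptl4, the secreted protein that inactivates lipoprotein lipase and is a target of the PPAR receptors, had 396.3, 72.8 and 126.7 in the wild type and 171.2, 285.6 and 219.3 in the knockout. The wild type arrays held both the highest and the lowest value, so the genotypes overlapped. The replicate 1 pair gave -1.12, and replicates 2 and 3 gave 1.20 (limma adjusted p = 0.396 in these 4 arrays). Its spread was the widest of the 29 genes (SE 0.526), and the other Angptl4 probe set did not pass the filter. Cd36, the main fatty acid translocase of the muscle cell, had 32973, 23836 and 25943 against 32939.6, 27389 and 26806. The replicate 1 arrays were level for it and the other knockout arrays were above the other wild type arrays by 0.12. Its other probe sets gave 0.13 and 0.12 in replicates 2 and 3. In the replicate 1 pair they gave 0.0049 and 0.53, so the dimmest was not level there.

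Slc27a1, the transport protein FATP1, had 2419.8, 1103 and 1009 in the wild type and 1974, 1474 and 1068 in the knockout, with both replicate 1 arrays high and the others overlapping (-0.29 and 0.25 in the 2 sets). Fabp3, the heart form of the cytosolic fatty acid binding protein, had 120560.1, 55053 and 69353 against 84391, 69709 and 75141. As for Lpl, its wild type replicate 1 array was the highest and its wild type replicate 2 array the lowest (-0.51 and 0.23). Fabp4, the binding protein of fat cells, endothelium and macrophages, had 38795, 35104 and 37608 against 38941, 36513 and 39212. By the brightest probe set it was the most even of the uptake genes (log2 0.041, SE 0.148). Its dimmer probe sets were less even, with 0.69, -0.58 and 0.67 in the replicate 1 pair. Of the cells that also hold these proteins, the summed signal of 12 endothelial markers was 37059 to 37983 in the wild type and 32746 to 34826 in the knockout, with 10 of the 12 lower in the knockout. That of 10 macrophage markers was 20358 to 32025 and 15171 to 31128, with 10 of 10 lower, and that of 7 fat cell markers was 3046 to 3242 and 2847 to 3449. The defining fat cell marker Adipoq had 39 to 93.4 in all 6 arrays and did not pass the filter, which 2 of the 7 passed. Lipe and Cidec of that list are also in the storage list, and Gpihbp1 of the endothelial list among other uptake genes. The part of these cells in the uptake genes was not tested.

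Of the genes of mitochondrial entry, Cpt2 differed most within replicates 2 and 3. Cpt2, the carnitine palmitoyltransferase of the inner membrane, had 9968, 7092 and 7674 in the wild type and 10157, 8950.2 and 9123 in the knockout (log2 0.20, SE 0.187). Its replicate 1 arrays were nearly level (0.027) and the other knockout arrays were higher by 0.29 (limma adjusted p = 0.498 in these 4 arrays). A much dimmer Cpt2 probe set went the other way, with -1.70 for replicate 1 and -0.041 for the others, and with the mean of both the difference over all arrays was -0.20. Cpt1a, the form of the outer membrane enzyme best known from liver, had 972.4, 974.9 and 892.9 against 1132, 1036 and 796.2. It ran the other way from most members, with 0.21 for replicate 1 and -0.038 for the others, and the groups overlapped. Mlycd, which breaks down malonyl-CoA, the inhibitor of carnitine palmitoyltransferase 1, had 1686, 2651 and 2674 against 1524, 3008 and 2681. Both its replicate 1 arrays were low, and its differences were -0.14 and 0.092.

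The acyl-CoA dehydrogenases, which catalyse the opening step for chains of different length, differed little between the genotypes. Acadvl, for very long chains, had 33119, 17934 and 19934 in the wild type and 28042, 21921 and 21775 in the knockout (-0.24 in the replicate 1 pair, 0.21 in replicates 2 and 3). Acadl, for long chains, had 41218, 33762 and 35485 against 37519, 38392 and 36918 (-0.14 and 0.12). Acadm, for medium chains, had 49951, 34153 and 41377 against 44796, 42074 and 41046 (-0.16 and 0.14), and here the knockout replicate 3 array lay below wild type replicate 3. Acads, for short chains, had 6426, 3902 and 4163 against 5938, 4786 and 4383 (-0.11 and 0.18). In each of the 4 the wild type replicate 1 array was the highest of the 6 and the wild type replicate 2 array the lowest. Their sign in the replicate 1 pair depended on the scaling: after quantile normalization Acadl had 0.13 and Acadm 0.14 while Acadvl had -0.0065 and Acads -0.10, and after median centring all 4 were above 0. In replicates 2 and 3 the 4 were above 0 under each scaling.

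The electron transfer flavoprotein takes the electrons of these dehydrogenases, and its oxidoreductase passes them to the respiratory chain. Its alpha subunit gene Etfa had 29706, 22619 and 25265 in the wild type and 25855, 24656 and 26365 in the knockout (-0.20 and 0.093 in the 2 sets), and the genotypes overlapped within replicates 2 and 3 as well. The beta subunit gene Etfb had 47758, 19772 and 22501 against 35271, 23778 and 25119.5 (-0.44 and 0.21), with the replicate 1 arrays far above the rest. Etfdh, the oxidoreductase, had 19102, 17364 and 19557 against 19218, 21309 and 20546. It was level in the replicate 1 pair (0.0087) and higher in both other knockout arrays (0.18).

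The enzymes of the later steps had the same signs: 7 of 7 were lower in the replicate 1 pair and above 0 in replicates 2 and 3, and in 6 of the 7 the knockout arrays of replicates 2 and 3 did not overlap the wild type arrays, against 22.3% of all tested genes that were higher without overlap. After quantile normalization 5 of the 7 were above 0 in the replicate 1 pair, and Echs1 had -0.037 in the others. Hadha and Hadhb encode the alpha and beta subunits of the trifunctional protein, which carries out the last 3 steps on long chains. Their genes lie head to head on chromosome 5, with 272 bases between the RefSeq starts, at 30154980 for Hadha on the minus strand and 30155253 for Hadhb on the plus strand (GRCm38.p6). The 250 bases before the Hadhb start (chr5:30155003-30155252, plus strand) are printed because the stretch lies between the starts of both genes; capitals mark the 228 bases that also lie in the 250 bases before Hadha.
Hadhb: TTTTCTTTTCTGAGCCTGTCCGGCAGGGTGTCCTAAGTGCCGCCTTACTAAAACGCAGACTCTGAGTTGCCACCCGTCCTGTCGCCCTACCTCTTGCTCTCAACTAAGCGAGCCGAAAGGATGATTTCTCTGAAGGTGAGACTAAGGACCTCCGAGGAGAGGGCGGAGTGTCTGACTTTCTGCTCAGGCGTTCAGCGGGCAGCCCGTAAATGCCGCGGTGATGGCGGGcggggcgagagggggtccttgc

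Hadha had 26138, 18962 and 20153 in the wild type and 23016, 22373 and 20367 in the knockout (-0.18 in the replicate 1 pair, 0.13 in replicates 2 and 3). Hadhb had 70598, 39563 and 43269.9 against 56476, 46679.7 and 47814 (-0.32 and 0.19). The head-to-head genes had the same signs in both sets, as had 7 of 7 genes of this group and 20 of the 29. An additional Hadhb probe set, with mean signals of 14263 and 16300.2, had the opposite signs, 0.48 for replicate 1 and -0.039 for the others, and the dimmest gave -0.64 and 0.82. Hadh, the short chain hydroxyacyl-CoA dehydrogenase, had 84345, 38527 and 44429.9 against 66741, 46017 and 46368 (-0.34 and 0.16). The 2 other Hadh probe sets gave -0.082 and 0.996 in the replicate 1 pair, and 0.15 and 0.0065 in replicates 2 and 3. Acaa2, the mitochondrial thiolase, had 31568, 22907 and 23350.2 against 28119, 26751 and 24723 (-0.17 and 0.15). Its 2 other probe sets gave 0.33 and 0.12 in replicates 2 and 3, and 0.15 and -0.049 in the replicate 1 pair. Echs1, the short chain enoyl-CoA hydratase, had 17514, 17117 and 17898 against 16274, 17259 and 17786 and was the flattest of the group (log2 -0.034, SE 0.146).

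Eci1 and Decr1 handle unsaturated fatty acids, whose double bonds have to be moved or reduced before beta-oxidation can go on. Eci1, the enoyl-CoA isomerase, had 19732, 15467 and 16818 in the wild type and 16590.1, 19647 and 20253 in the knockout. The knockout was the lower array of the replicate 1 pair and held the highest 2 of the other 4 (-0.25 and 0.31; limma adjusted p = 0.489 in those 4 arrays). Decr1, the dienoyl-CoA reductase, had 17085, 16513 and 16825 against 15528, 20387 and 17706 (-0.14 and 0.19). Its wild type arrays were within a narrow range and its knockout arrays were on both sides of it.

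The regulators were higher in the knockout in both sets, under each of the 3 scalings tried. Ppara, which encodes PPAR-alpha, had 3046, 1582 and 1877 in wild type arrays 1, 2 and 3 and 3782, 2339 and 2120.3 in the knockout arrays. Each knockout array was above the wild type arrays of its own set, by 0.31 for replicate 1 and 0.37 for replicates 2 and 3, although wild type replicate 1 exceeded knockouts 2 and 3. Without a block the log2 difference was 0.35 with an SE of 0.323. With the replicate 1 arrays as a block the SE was 0.117 and the limma adjusted p 0.586, the lowest of the 29 in that fit. The fit called 0 of the 29 genes and 1 of 11075 (0.00903%), and it gave an unadjusted p under 0.05 to Ppara alone of the 29 and to 8.32% of all tested genes. The 2 other Ppara probe sets gave 0.13 and 0.31 over all arrays, higher in both sets. Ppargc1a, which encodes the coactivator PGC-1alpha, had 2196, 2765 and 3327 against 2368, 4047 and 3606 (log2 0.26, SE 0.263; 0.11 and 0.33 in the 2 sets). Its 4 other probe sets were between 0.13 and 0.42 over all arrays, and 1 of them was lower in replicates 2 and 3, at -0.10.

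Among genes that PPAR-alpha is known to switch on and that dispose of or store surplus fatty acid, directions differed. Ucp3, the mitochondrial uncoupling protein of muscle, had 870.7, 815.7 and 521.3 in the wild type and 558.5, 549.7 and 551.0 in the knockout. The knockout arrays were nearly equal and overlapped only the lowest wild type array (log2 -0.37, SE 0.223). It was the 1 gene of the 29 that was lower in both sets, and stayed so under the other scalings, but its other probe set gave 0.075. Plin5, the lipid droplet protein of oxidative tissue, had 4026, 2864 and 2907 against 3910.2, 3932 and 3427 (-0.042 and 0.35; limma adjusted p = 0.482 for replicates 2 and 3). A dimmer probe set of Plin5 gave -0.065 and 0.51 in the 2 sets, with the same signs.

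Acot1 and Acot2, thioesterases that split acyl-CoA into free fatty acid and coenzyme A in the cytosol and the mitochondrion, are related genes whose starts lie 21641 bases apart on chromosome 12. Each could share signal with its neighbour on the array, and 1 further probe set is annotated to both and was not used. The 250 bases before their starts are printed as well. They lie outside the transcripts and do not bear on shared signal. These stretches (GRCm38.p6, chr12:84009252-84009501 for Acot1 and chr12:83987611-83987860 for Acot2, both plus strand) were identical at 50.2% of 295 aligned positions, gaps included. No unrelated pair was aligned for comparison. Capitals mark the letters CCAAT on either strand.
Acot1: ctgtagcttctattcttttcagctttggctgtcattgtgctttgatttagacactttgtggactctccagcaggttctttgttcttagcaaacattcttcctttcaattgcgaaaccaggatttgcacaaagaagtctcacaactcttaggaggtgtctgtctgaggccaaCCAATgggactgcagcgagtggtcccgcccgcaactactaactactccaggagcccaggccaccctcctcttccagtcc
Acot2: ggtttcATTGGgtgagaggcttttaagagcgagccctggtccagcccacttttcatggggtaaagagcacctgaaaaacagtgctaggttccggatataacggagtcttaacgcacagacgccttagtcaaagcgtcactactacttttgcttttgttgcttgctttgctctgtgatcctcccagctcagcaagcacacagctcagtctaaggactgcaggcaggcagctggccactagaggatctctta

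Acot1 had 242.4, 351.8 and 271.6 in the wild type and 396.7, 497.9 and 308.5 in the knockout, higher in both sets but overlapping (0.66 and 0.32; log2 0.44, SE 0.232). It had the lowest unadjusted limma p of the 29 genes without a block. With the replicate number as a block it and Ppara had an unadjusted p under 0.05, that is 2 of the 29 genes against 5.99% of all tested genes, and 0 of the 29 were called (lowest adjusted p = 0.767). Acot2 had 4058, 3903 and 3907 against 4121, 5100.0 and 4333, and every knockout array was above every wild type array (log2 0.18, SE 0.16). It was the 1 gene of the 29 without overlap over all 6 arrays, and 0 were lower without overlap. Of all tested genes, 3.9% of all tested genes had the knockout higher without overlap and 3.56% had it lower. After quantile normalization its replicate 1 pair had -0.026. Its other, dimmer probe set gave -0.20, so the direction did not hold across its probe sets.

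Over the whole set, 19 of the 29 genes had more than 1 probe set. Of the 30 other probe sets, 21 had the sign of the brightest in replicates 2 and 3 and 18 in the replicate 1 pair. Those of the opposite sign in replicates 2 and 3 included a probe set of Slc27a1 (-0.089) and 2 of Fabp4 (-0.20 and -0.052). Counting every probe set, 47 of 59 were higher in the knockout in replicates 2 and 3 and 26 of 59 in the replicate 1 pair.

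For the promoters, 24 of the 29 genes matched RefSeq windows of 300 bases around the start (GRCm38.p6), 27 windows in all. The PPAR response element, searched on both strands as 2 copies of AGGTCA in the same direction with 1 base between them, was in 0 of the 27 and in 0.0396% of all 32851 windows. The looser form with 2 copies of AGGNCA, which includes it, was in 0 of the 27 and in 0.381% of all windows. The letters AAGGTCA, bound by oestrogen-related receptors, were in the window of Acadm and in 4.72% of all windows. The letters CCAAT were in 12 of the 27 windows and in 37.4% of all. These are matches of letters in short windows, and known response elements of such genes can lie elsewhere.

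To ask whether the genotype difference itself differed between the replicate 1 pair and replicates 2 and 3, the interaction was tested over all genes with limma. It called 0 of the 29 genes and 63 of 11075 (0.569%). Unadjusted p was under 0.05 for 6 of the 29 (Lpl, Angptl4, Fabp3, Etfb, Hadhb and Eci1) and for 20.5% of all tested genes, shares that lie close together with the deposited scaling. After quantile normalization it was under 0.05 for 1 of the 29 and 2868 of 11070 tested genes, and after median centring for 1 of the 29 and 3073 of 11075. Angptl4 had the largest interaction, 2.32 (SE 0.445, adjusted p = 0.0978), followed by Lpl with 0.81 (SE 0.241, adjusted p = 0.17) and Fabp3 with 0.74 (SE 0.261, adjusted p = 0.211). The last 2 depended on the scaling: after quantile normalization Lpl had 0.10 for replicate 1 and 0.077 for the others, and Fabp3 had 0.12 and 0.063. Replicate 1 enters each of these with a single array per genotype.

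The negative side of the pattern, that of the replicate 1 pair, depended on how the arrays were scaled. With quantile normalization, which gives all arrays the same distribution of signals, 17 of the 29 genes were above 0 in that pair, with a median of 0.035 against 0.015 for all tested genes. With each array centred on its median, 21 were above 0, but the median of all tested genes in the pair then moved to 0.29, and the median of the 29 was 0.16 below it, as with the deposited scaling. Replicates 2 and 3 kept their side: 25 of the 29 were above 0 after quantile normalization (median 0.11, 15 without overlap, against 22.8% of all tested genes) and 27 after median centring (median 0.19, 19 without overlap, against 22.3%). Lpl and Fabp3 changed sign with the scaling in the replicate 1 pair, to 0.10 and 0.12 after quantile normalization, while Angptl4 stayed at -1.24 and Slc27a1 at -0.39.

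**Figure D3:**
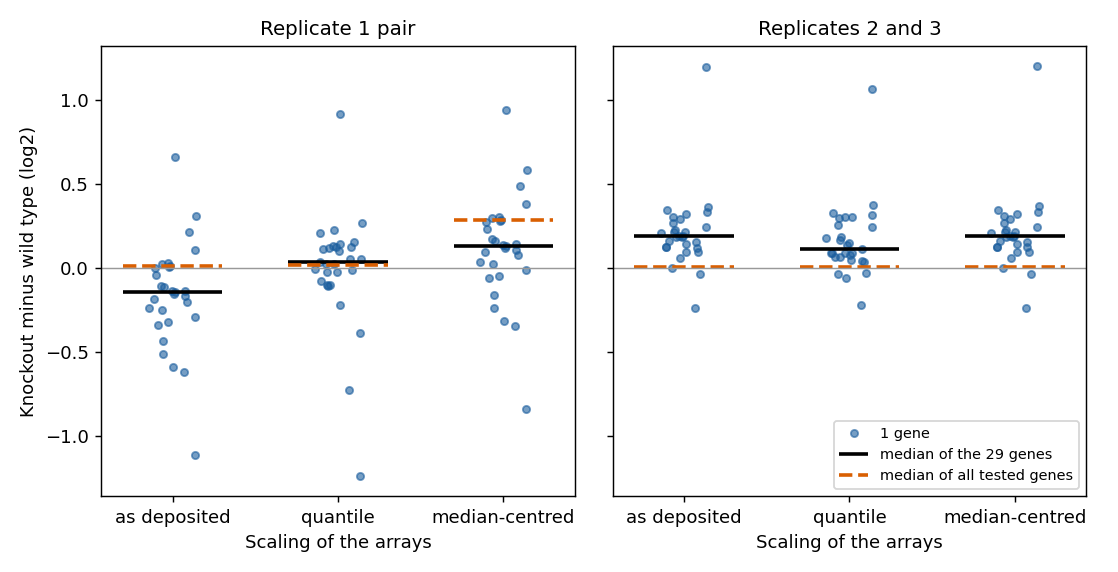
Knockout minus wild type difference of the 29 genes (points) under 3 scalings of the arrays, for the replicate 1 pair on the left and replicates 2 and 3 on the right, with the median of the 29 genes (solid line) and of all tested genes (dashed line). On the left the solid line moves from -0.14 to 0.035 and 0.13; on the right it stays between 0.11 and 0.19.

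The probe sets read here were mostly bright ones, with 20 of the 29 among the 1108 of highest mean log2 signal, a rank of probe set signals and not of RNA levels. Over the genes of these 1108 probe sets the median was -0.038 for replicate 1 and 0.038 for replicates 2 and 3. The 20 fatty acid genes among them had medians of -0.16 and 0.18. In the replicate 1 pair 43.7% of the 1108 genes were higher in the knockout, and 4 of the 20. In replicates 2 and 3 it was 61.2% of the 1108 genes, and 20 of the 20. Both knockout arrays of replicates 2 and 3 were above both wild type arrays for 30.3% of the 1108 genes. Of the cardiomyocyte markers, 10 of the 10 were lower in the knockout for replicate 1 (median -0.62), and 9 of the 10 were higher for replicates 2 and 3 (median 0.16). For replicate 1 their summed signal was 1187200 in the wild type and 760701 in the knockout, and in the other arrays it was 397663 and 503441 in the wild type against 478696 and 522135 in the knockout. The 5 atrial markers summed to 15078 to 16704 in the wild type and 16365 to 19965 in the knockout, 8 fibroblast markers to 38642 to 60356 and 36573 to 67864, and 8 skeletal muscle markers to 56802 to 78005 and 56980.3 to 76065. Nppa made up most of the atrial sum. Myl7 had 1101, 96.5 and 1246 in the wild type and 1861, 1320.5 and 635.2 in the knockout. Sln had 205.2, 56.6 and 583.9 against 613.6, 405.7 and 138.1. Ckm and Acta1 made up most of the skeletal muscle sum. The filter was passed by 4 of the 5 atrial and 4 of the 8 skeletal muscle markers. In the replicate 1 pair 8 of the 8 skeletal muscle markers were lower in the knockout, and in replicates 2 and 3 5 were higher. The part of brightness and of these cells in the values of the fatty acid genes was not tested.

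**Figure D4:**
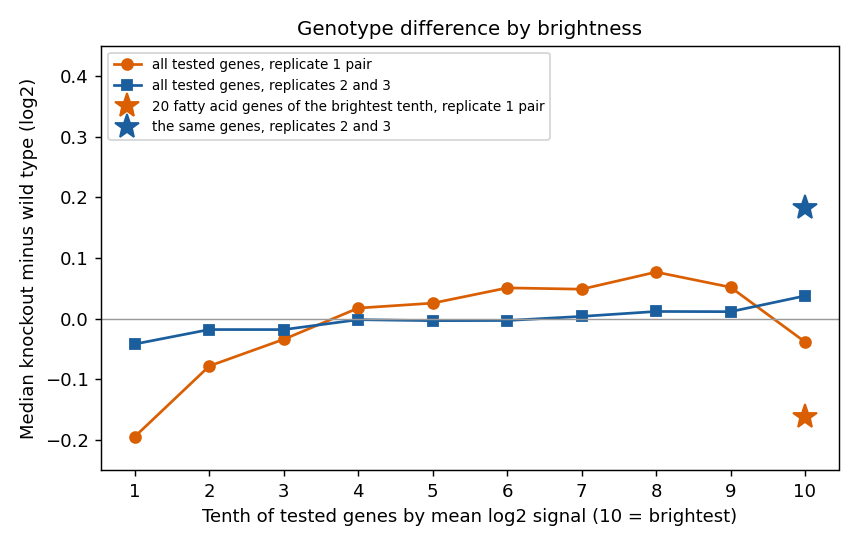
Median knockout minus wild type difference of all tested genes in 10 groups of equal size by mean log2 signal, for the replicate 1 pair (circles) and replicates 2 and 3 (squares), with stars for the 20 fatty acid genes of the brightest group. The stars lie at -0.16 and 0.18, further from 0 than the medians of their group, -0.038 and 0.038.

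Other genes of the pathway, outside the 31, were read from 6 lists, and limma without a block called 0 of their tested genes, with 0 at an unadjusted p under 0.05. Counts and medians here are over all measured genes of a list, including the few that did not pass the filter. Of 18 other measured genes of mitochondrial acyl-CoA and ketone body breakdown, 17 were higher in the knockout in replicates 2 and 3 and 11 in the replicate 1 pair, with medians of 0.12 and 0.064. Pcca, a subunit of propionyl-CoA carboxylase, had 5161, 4697 and 4921 in the wild type and 6862, 5607 and 5865 in the knockout, without overlap (log2 0.31, SE 0.16). Ivd, the isovaleryl-CoA dehydrogenase of leucine breakdown, had 7219, 5427 and 4924 against 8686, 7436 and 6809, with 0.27 and 0.46 in the 2 sets. Bdh1, the ketone body dehydrogenase, had 7742, 3978 and 4256 against 12172, 4874 and 7857, higher in both sets (0.65 and 0.59) but overlapping, and Acad11 gave 0.14 and 0.27.

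Of the carnitine shuttle and malonyl-CoA list, 7 of 7 measured genes were above 0 over all arrays, 5 of 7 in the replicate 1 pair and 4 of 7 in replicates 2 and 3 (medians 0.26, 0.13 and 0.28). Slc25a20, the carnitine-acylcarnitine carrier of the inner membrane, had 6256, 7040.3 and 8207 against 7306, 10337 and 8811 (0.22 and 0.33), and Slc22a5, the carnitine transporter of the cell surface, had 742.6, 797.5 and 839.0 against 816.0, 1069 and 988.2 (0.13 and 0.32). Each was above the wild type within its set. Crot, a carnitine acyltransferase of peroxisomes, gave 0.88 and -0.00098, and Crat, the carnitine acetyltransferase, -0.053 and 0.29.

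The peroxisomal list, for chains too long for mitochondria, had 11 of 15 measured genes higher in replicates 2 and 3 and 4 of 15 in the replicate 1 pair (medians 0.10 and -0.31). Its lowest unadjusted p values belonged to Acox3 (log2 0.43), Decr2 (-0.24), Abcd2 (-0.28) and Hsd17b4 (0.21). Of 16 genes of lipid storage and lipolysis, 10 were higher in replicates 2 and 3 and 4 in the replicate 1 pair (medians 0.13 and -0.13). G0s2, an inhibitor of the triglyceride lipase ATGL, had 4071, 3932 and 3066 against 3519.6, 6568 and 5387 (-0.21 and 0.77), with knockouts 2 and 3 the highest of the 6 arrays. Fitm2, a protein of lipid droplet formation, had 4706, 2884 and 2967 against 5203, 4162 and 3943 (0.14 and 0.47), Lpin1 gave -0.097 and 0.35, and Plin3 -0.88 and -0.06.

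Other uptake and activation genes were higher in 10 of 16 in replicates 2 and 3 and in 7 of 16 in the replicate 1 pair. Acsl3, an acyl-CoA synthetase, had 276.2, 160.8 and 148.5 against 140.5, 104.6 and 136.7, lower in the knockout without overlap (log2 -0.50, SE 0.256), while Vldlr, the very low density lipoprotein receptor, had 11497, 11172 and 11648 against 12722, 12077 and 12172, higher without overlap (log2 0.11). Slc27a4 gave log2 -0.33 and Dbi, the acyl-CoA binding protein, 0.18. In the list of PPAR partners, targets and energy sensors, 11 of 21 were higher in replicates 2 and 3 and 12 of 21 in the replicate 1 pair, with medians of 0.014 and 0.017. Pdk4, the pyruvate dehydrogenase kinase that PPAR-alpha switches on, had 7694, 9185 and 8971 against 4412, 8410.3 and 7147, below the wild type within each set (-0.80 and -0.23), the opposite direction to Ppara. Esrrb gave 0.059 and 0.46, Ncoa1 0.017 and 0.31, and Rxrb 0.039 and 0.25.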

How the data were processed

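Left ventricle RNA was measured on 6 arrays, 3 a genotype. The deposited values are intensities, which the authors computed with MAS5 per the submitters' processing notes, with version and settings not given in the sources used here. Every array's mean, leaving out 2% of signals at each end, was 500 as deposited. Annotation named 1 gene for 34945 probe sets, several for 932 (left out) and none for 9160; 64 controls were left out. The pseudocount, 21.7, is the 20th percentile of all values. Genes whose brightest probe set had a mean log2 value of at least 6.868, the median over probe sets, entered limma 3.58.1 (R 4.3.3; lmFit and eBayes, no block), with Benjamini-Hochberg adjustment over all tested genes and a threshold of 0.05. The number of arrays limits the precision. The scripts were tested on simulated data.

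The members, lists, tests and named genes (all members, and up to 4 of each further list by lowest unadjusted p) were chosen with earlier results of these arrays known. The replicate numbers were checked as pairs: departures from the genotype mean correlated between the genotypes at 0.608 for number 1, 0.476 for number 2 and 0.382 for number 3, and between the unlike numbers 2 and 3 at 0.412 and 0.362. Like and unlike numbers were close for 2 and 3, so the check does not show these to be pairs. The number was also fitted as a block. The labels name no batch. The replicate 1 arrays were set apart because they had stood apart in an earlier analysis of these arrays. Their control probe sets differed as well. Alternatives were other pseudocounts, filters, scalings, variance estimates, blocks, the mean of all probe sets, and leaving out arrays. Promoter sequences and gene starts are RefSeq's, GRCm38.p6, and 29 of 29 symbols matched its gene table.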

Additional observations from a re-analysis of the deposited data

How the results depend on the processing

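No fatty acid gene passed an adjusted p of 0.05 between the genotypes in any alternative run, nor in any fit without 1 array, and these last called 0 of all genes too. The fit with the replicate block called 0 of the 29 and 0 of all genes; pairing changed no call. Over all genes limma called 1 with a pseudocount of 100, 1 with the trended, robust variance, 1 with the batch block and 5 with that block and the trended, robust variance. The median of the 29 genes was 0.046 with the replicate block as without, 0.087 after quantile normalization, 0.14 after median centring, and between -0.035 (without wild type replicate 2) and 0.22 (without wild type replicate 1) in fits without 1 array, which leave unequal shares of the 2 sets in the genotypes. The interaction was called for 63 genes, against 96 with a pseudocount of 1, 0 without the filter, 3 with a stricter filter, 510 after quantile normalization, 271 after median centring, 551 with the trended, robust variance and 29 with the mean of all probe sets; the cause was not tested. The last but one called 1 of the 29, Angptl4 (limma adjusted p = 0.0256). Over these alternatives the lowest limma adjusted p of the tested members was between 0.0256 and 0.154. With the stricter filter 28 members were tested, Angptl4 was not among them, and the lowest was that of Lpl (0.124). With the mean of all probe sets 28 were tested as well. The counts of genes above 0 in each set, and without overlap in replicates 2 and 3, were chosen after seeing the data. In replicates 2 and 3, 27 genes above 0 became 25 after quantile normalization and 27 after median centring. The 21 without overlap there became 15 and 19. In the replicate 1 pair, 8 genes above 0 became 17 and 21. The number of arrays, 1 a genotype in that pair, limits all of these.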
